A study of Rattus norvegicus with 20 samples.

Results

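Kidneys of rats labelled HS, read here as haemorrhagic shock because the labels do not spell the letters out, were compared with kidneys of rats labelled Sham. The comparison uses 11 of the 20 libraries of a rat series on kidney injury after trauma, chosen by their disease label: 5 HS and 6 Sham. The other groups, labelled RM (6 libraries) and RM-HS (3 libraries), are abbreviated in the labels too. The labels give frozen kidney as the tissue, with poly(A) libraries that keep strand, and name no strain, sex, age, blood loss or time after injury. Nothing states that the libraries come from separate animals, so p-values measure the spread between libraries, which may be partly technical. The series' design text counts 5 RM libraries and 19 in all, against 6 and 20 in the labels.

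Haemorrhagic shock lowers the blood flow to the kidney, and the tubule, which works at high oxygen demand, is its most sensitive part. Injured proximal tubule cells are known to switch on surface and secreted proteins such as KIM-1 and lipocalin-2, stress factors of the AP-1 family, and fibrinogen, a clotting protein made mainly by the liver. Salt transport along the thick ascending limb and the collecting duct depends on channels and pumps whose transcripts are often lower after ischaemic injury.

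Each library held 45 to 110 M reads in the table, of which 23.3 to 51.9 M were outside the mitochondrial genome. Sham 2, Sham 3, Sham 4 and Sham 5 stood apart from Sham 1 and Sham 6. For Slc5a2, the sodium-glucose cotransporter of the early proximal tubule, Sham 1 and Sham 6 held 6791 and 7863 normalized reads, and Sham 2 to Sham 5 held 48.2, 396, 180.1 and 43.1. HS libraries held 9389 to 12030.4. The summed level of 12 podocyte genes was 5160 to 9051 in Sham 2 to Sham 5, 16150 to 17870 in Sham 1 and Sham 6, and 15710 to 18330 in HS. Genes and lists below were therefore tested against all 6 Sham libraries and against Sham 1 and Sham 6 alone. Unless stated otherwise, a printed difference is the one against all 6 Sham libraries. Its size against Sham 1 and Sham 6 can differ even where the call is shared. A gene is said to have risen or fallen "with both control sets" where it passed in the same direction in both. Values are the authors' normalized read counts, and differences are HS minus Sham on a log2(value + 1) scale with their standard errors. As the tissue is bulk, fewer cells of a type and less RNA per cell cannot be told apart.

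Of 15954 tested rows, 7410 (46.4%) differed between HS and all 6 Sham libraries at a limma adjusted p under 0.05, 3712 higher (23.3%) and 3698 lower (23.2%) in HS. Against Sham 1 and Sham 6, 4105 rows (25.7%) passed, 2337 higher (14.6%) and 1768 lower (11.1%). That count rested on a pair of controls, and it was 2460 without Sham 1 and 1428 without Sham 6. The calls shared by both control sets, in the same direction, were 2124 higher (13.3%) and 1586 lower (9.94%), 23.3% in all, and these shares are the background for the counts below. Over all rows the median log2 difference was -0.03, or -0.01 against Sham 1 and Sham 6. Of the shared calls, 1103 differed at least 2-fold in both comparisons, 520 higher and 583 lower. HS and Sham libraries did not overlap for 4140 rows (25.9%), and 1707 higher (10.7%) and 1225 lower (7.68%) rows also passed with both control sets. The 15 largest rises and 15 largest falls below were picked from these rows, so their lack of overlap was set by that choice. The same holds for the 6 largest differences from RM in each direction. On recovered whole reads edgeR called 7163 rows (44.9%) against all controls, and 4066 (25.5%) against Sham 1 and Sham 6. All 6 Sham libraries and 3 of the HS libraries have names that begin with R, and with those libraries alone 5281 rows passed, or 5968 with the letter as a covariate. With upper quartile scaling the median row moved to -0.13 (-0.10 with Sham 1 and Sham 6), and the higher share of the calls against Sham 1 and Sham 6 went from 56.9% to 44.8%, so differences are best read against the median row. Slc7a8, a neutral amino acid exchanger of the proximal tubule, was the 1 row called in opposite directions, higher in HS with all controls (1.64 ± 0.59) and lower with Sham 1 and Sham 6 (-0.61 ± 0.17); it was singled out after its values were seen.

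**Figure D1:**
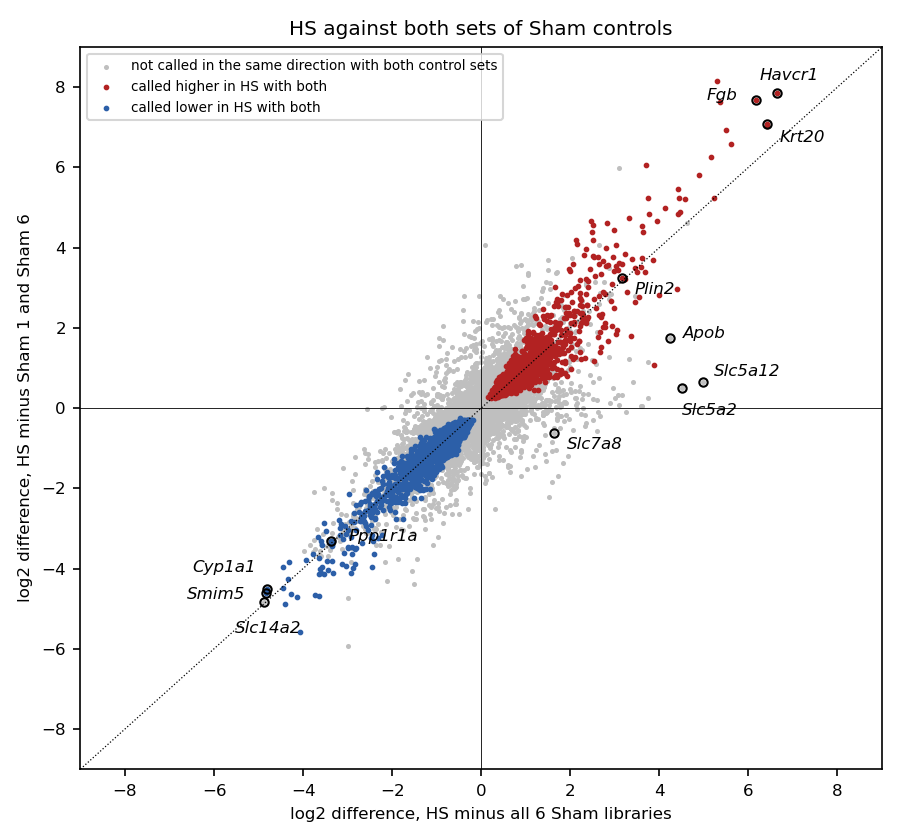
Each point is a gene with a symbol. The x axis is the log2 difference of HS minus all 6 Sham libraries, and the y axis is HS minus Sham 1 and Sham 6. Red and blue points passed in the same direction with both control sets; Slc5a2, Slc5a12 and Apob lie far to the right of the diagonal, and Havcr1, Krt20 and Fgb are high on both axes.

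Most markers of tubular injury rose. Of 23 tested markers, 17 rose against all Sham libraries and the other 6 did not pass, and all of the 17 also rose with Sham 1 and Sham 6, with a median log2 difference of 1.20 over the list. Havcr1 (chr10:31814245-31846857 in rn6), which encodes the phosphatidylserine receptor KIM-1, held 7146, 16975, 29197, 14747 and 4719.9 normalized reads in HS 1 to HS 5. Its lowest, median and highest Sham values were 39.4, 152 and 249. The log2 difference was 6.63 ± 0.61 (limma adjusted p = 2e-07), or 99.2-fold, and 7.85 ± 0.78 with Sham 1 and Sham 6. The lowest HS library was far above the highest Sham library. Within HS the level varied, from the lowest in HS 5 to the highest in HS 3.

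Krt20, an intermediate filament keratin of gut and urothelial lining, was nearly silent in Sham at 0, 6.69 and 19.8 (lowest, median, highest) and held 1050.2, 417, 358, 410.4 and 275 in HS 1 to HS 5. It rose by 6.43 ± 0.67 on the log2 scale (limma adjusted p = 7.2e-07), and here HS 1, which was low for Havcr1, was the highest library. Among the other simple keratins Krt8 rose by 0.87 ± 0.10 and Krt18 by 0.75 ± 0.24 with both control sets, while Krt19 did not pass (-0.62 ± 0.30, limma adjusted p = 0.094). Lmna, the nuclear lamin A gene, rose by 0.82 ± 0.13.

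Lcn2, which encodes the iron-carrier-binding protein lipocalin-2, behaved differently from Havcr1. HS 1 to HS 5 held 270.0, 7532, 11688, 14565 and 4180.4, and the Sham libraries held 19.8, 4392, 3275, 2374, 102 and 223 in the order Sham 1 to Sham 6. The groups overlapped, with HS 1 below 3 of the 6 Sham libraries. Lcn2 did not pass against all controls (3.09 ± 1.37, limma adjusted p = 0.072) and passed against Sham 1 and Sham 6 (5.98 ± 1.59, limma adjusted p = 0.012). Genes of the wound and matrix response passed with both sets and without overlap: Tnfrsf12a, the TWEAK receptor, rose by 2.74 ± 0.31, Ccn2 (connective tissue growth factor) by 2.55 ± 0.34, Ccn1 by 2.21 ± 0.34 and the integrin subunit Itgb6 by 1.14 ± 0.10. Progenitor-associated transcription factors were higher as well, Sox4 by 1.20 ± 0.23 and Sox9 by 0.97 ± 0.23, as was the cadherin Cdh6 by 2.02 ± 0.35. Vcam1, an adhesion molecule of proximal tubule cells that fail to repair, did not pass (-0.81 ± 0.38, limma adjusted p = 0.084), and Spp1, which encodes osteopontin, did not either (0.83 ± 0.40).

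**Figure D2:**
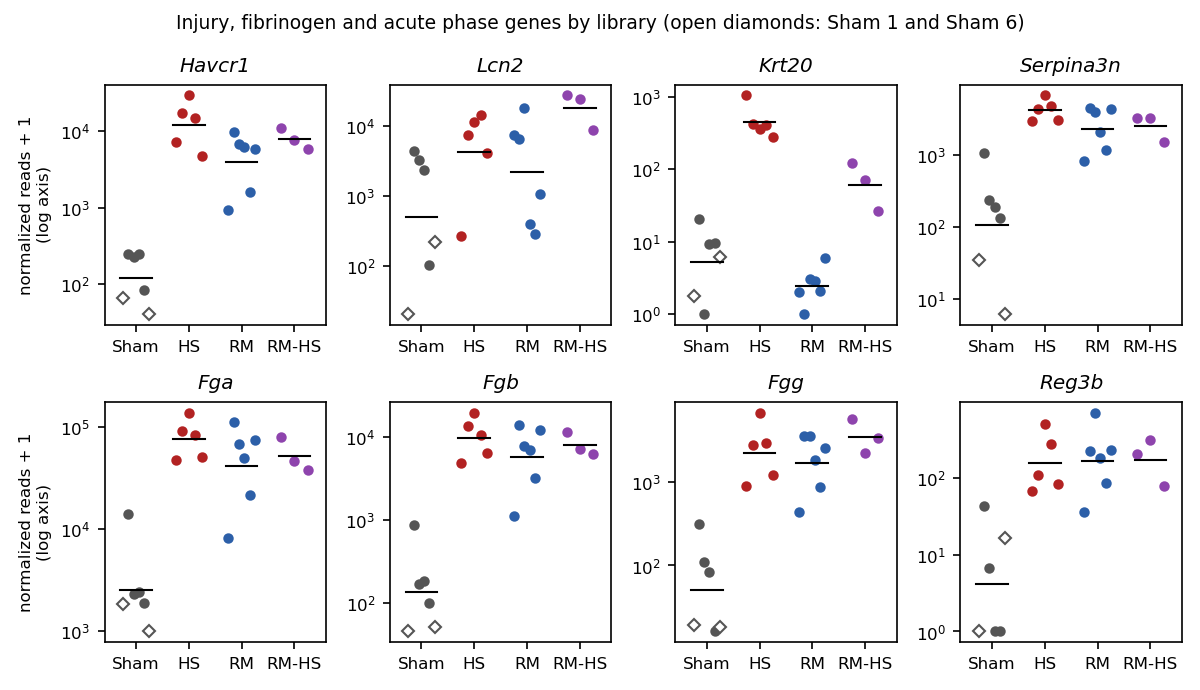
Normalized reads plus 1 on a log axis for 8 genes, with 1 point per library, open diamonds for Sham 1 and Sham 6, and a line at the geometric mean of each group. Havcr1, Krt20, Serpina3n, Fga, Fgb, Fgg and Reg3b do not overlap between HS and Sham, whereas for Lcn2 HS 1 lies among the Sham libraries.

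All 3 fibrinogen chains were among the largest rises. Fga, Fgb and Fgg encode the alpha, beta and gamma chains that assemble into fibrinogen, and in GRCr8 they lie close together on chromosome 2. The 250 bases before each gene's start, from RefSeq's GRCr8 promoters, are shown here for these 3 genes and for Serpina3n, an acute phase serine protease inhibitor, because the 4 genes rose together; capitals mark matches to CTGGGAA, the core of the interleukin-6 response element known from fibrinogen promoters, or to TTCNNNGAA, the STAT site, on either strand, which overlap in Serpina3n.
Fga (chr2:170671919-170672168 on the plus strand): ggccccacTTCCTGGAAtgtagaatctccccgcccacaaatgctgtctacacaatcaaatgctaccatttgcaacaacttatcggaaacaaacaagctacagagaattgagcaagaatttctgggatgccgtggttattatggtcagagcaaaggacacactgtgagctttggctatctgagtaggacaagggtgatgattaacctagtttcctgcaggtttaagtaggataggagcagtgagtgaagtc
Fgb (chr2:170700876-170701125 on the minus strand): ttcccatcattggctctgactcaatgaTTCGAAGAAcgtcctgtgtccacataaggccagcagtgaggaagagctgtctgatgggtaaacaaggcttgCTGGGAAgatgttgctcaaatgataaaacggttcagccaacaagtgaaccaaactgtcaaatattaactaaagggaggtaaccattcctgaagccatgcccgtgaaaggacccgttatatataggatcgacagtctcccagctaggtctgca
Fgg (chr2:170652833-170653082 on the plus strand): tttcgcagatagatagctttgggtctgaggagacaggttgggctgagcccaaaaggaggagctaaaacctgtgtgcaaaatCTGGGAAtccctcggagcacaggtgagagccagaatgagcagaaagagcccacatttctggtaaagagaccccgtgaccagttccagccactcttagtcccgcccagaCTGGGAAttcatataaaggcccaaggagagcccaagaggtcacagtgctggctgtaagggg
Serpina3n (chr6:129088142-129088391 on the plus strand): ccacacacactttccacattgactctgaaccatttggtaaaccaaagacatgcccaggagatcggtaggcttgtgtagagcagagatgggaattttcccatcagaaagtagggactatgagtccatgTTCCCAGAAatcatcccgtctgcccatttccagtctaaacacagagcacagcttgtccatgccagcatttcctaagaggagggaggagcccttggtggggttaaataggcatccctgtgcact
CTGGGAA is in 4 of the 5 promoters found for the 7 acute phase genes that rose (Fgb, Fgg, Serpina3n and Lrg1) and in 9.56% of 33469 promoters of the same length. TTCNNNGAA is in 3 of those 5 (Fga, Fgb and Serpina3n) and in 7.67% of all promoters. A match of letters is a description of the sequence and does not show that a factor binds there.

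Fga (chr2:181997562-182013726 in rn6) held 47222, 90313, 137363, 82125 and 50765 normalized reads in HS 1 to HS 5 and 984, 2093 and 13812 as lowest, median and highest in Sham. It rose by 4.90 ± 0.61 on the log2 scale (limma adjusted p = 4.3e-06). Fgb held 4859.7, 13662, 19644, 10539.9 and 6433 in HS against 44.1, 132 and 858 in Sham, a difference of 6.18 ± 0.67 (limma adjusted p = 1.2e-06). In each of the 3 chains HS 3 was the highest HS library and HS 1 the lowest, and every HS library was above every Sham library. Fgg held 901, 2787, 6875, 2929 and 1209 in HS against 15.1, 50.9 and 310.4 in Sham, a difference of 5.50 ± 0.73 (limma adjusted p = 9e-06). Sham 2 was the highest control for all 3.

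Serpina3n held 2944, 4369.5, 6639, 4803 and 3002 in HS against 5.14, 159 and 1049 in Sham (5.30 ± 0.85, limma adjusted p = 5.6e-05). In all, 7 of 14 acute phase genes rose, each with both control sets. Haptoglobin (Hp) rose by 1.20 ± 0.49 and Lrg1 by 1.20 ± 0.34. The members that did not pass include ceruloplasmin (Cp, 0.02 ± 0.20) and haemopexin (Hpx, 0.06 ± 0.65). Serpina1, which encodes alpha-1-antitrypsin, held 541, 676, 551, 564 and 769 in HS against 7.6, 43.3 and 125 in Sham and rose by 4.14 ± 0.48 without overlap. Of the defining liver genes, Alb held 4.9 to 87.2 in HS and 0 to 98.9 in Sham, and Ttr held 0 to 8.81 and 0 to 38.7, and neither passed. The summed level of 9 liver markers was 3691 to 7298 in HS and 2874 to 12420.0 in Sham, and 2 of the 9 were called, Serpina1 and Apob. Apob rose by 4.24 ± 0.77 with all controls and did not pass with Sham 1 and Sham 6 (1.75 ± 0.76).

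Complement genes split. C3, the central component, rose by 1.30 ± 0.46 with both control sets and held 1529, 2597, 8335, 1993 and 1069.5 in HS 1 to HS 5, with HS 3 far above the rest and the groups overlapping. Cfi, Cd55, Cd46 and C6 also rose with both sets, by 1.35, 1.39, 0.74 and 1.47 on the log2 scale, the first 3 of which encode inhibitors of complement. C1qa, Serping1 and C1r fell with all controls only (log2 differences of -0.59, -0.60 and -0.63). With all controls 6 of 20 members rose, 3 fell and 11 did not pass, and 5 rose and 0 fell with both sets. Over all rows 23.3% rose and 23.2% fell, or 13.3% and 9.94% with both sets.

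Interleukin-6 family genes rose in part, receptors and 1 cytokine among them. Osmr, the oncostatin M receptor, held 3726, 2885, 4485, 3437 and 2863 in HS against 617, 812 and 926 in Sham, a rise of 2.09 ± 0.17 on the log2 scale (limma adjusted p = 9.1e-08). Lifr rose by 2.01 ± 0.25, the shared signal transducer Il6st by 1.24 ± 0.14, and downstream Jak2 by 0.85 ± 0.16 and Stat3 by 1.18 ± 0.10, all with both control sets and without overlap. The list counted also holds STAT3 signalling genes and other cytokine genes, such as Il1b, Il1r1, Il34 and Tnf. Of its 27 genes 11 rose and 4 fell, 8 and 3 of them with both sets. The cytokine Lif rose by 1.95 ± 0.43, and Il11ra1, the interleukin-11 receptor, fell by 0.91 ± 0.11, with both sets. Il6 itself did not pass (0.17 ± 0.68, limma adjusted p = 0.86), with 3.2 to 115 normalized reads in HS, nor did the feedback inhibitor Socs3 (0.31 ± 0.40). Cish, the feedback inhibitor of STAT5 signalling, went the other way, from 846, 1738 and 2133 in Sham to 186, 385, 479, 297 and 162 in HS, and fell by 2.48 ± 0.30 (limma adjusted p = 3.2e-06) without overlap. Il1b fell by 2.18 ± 0.34 and, with all controls only, Tnf fell by 1.81 ± 0.43.

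Chemokines moved in both directions. Ccl20, a ligand of CCR6, held 949.7, 707, 777, 313 and 1349.7 in HS against 14.4, 35.4 and 64.7 in Sham (4.43 ± 0.52, limma adjusted p = 2.6e-06). Ccl4, a chemokine of macrophages, held 239, 177, 94.7, 55.8 and 9.61 in HS and 468, 849.6 and 1559 in Sham, and fell by 3.48 ± 0.55 (limma adjusted p = 4.4e-05). Neither gene overlapped between groups, which the choice of the largest rises and falls required. Cxcl12, the CXCR4 ligand of stroma and vessels, fell by 1.44 ± 0.27, and Cxcl13, a B-cell attractant, fell by 2.97 ± 0.53. Cxcl16 rose by 0.81 ± 0.18, Cxcl11 by 2.51 ± 0.76 and Ccl22 by 2.68 ± 0.86. Cxcl6 was at 0 in all 6 Sham libraries and held 198, 0, 91.1, 17.6 and 25.6 in HS 1 to HS 5, so HS 2 had no read either; it passed with all controls (limma adjusted p = 0.0037) and not with Sham 1 and Sham 6 (limma adjusted p = 0.072). The neutrophil attractants Cxcl1 and Cxcl2 did not pass (-0.17 ± 0.70 and -0.77 ± 0.85).

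Markers of immune cells differed by type. None of 14 lymphocyte markers passed limma with either control set, and their summed level was 767 to 872 in HS against 528 to 1170 in Sham. At an unadjusted p under 0.05 the count was 0 as well, and edgeR called 0. Of 14 macrophage markers, 6 fell with all controls, 4 of them with both sets, and the others did not pass. Against Sham 1 and Sham 6 alone, the scavenger receptors Mrc1 (1.69 ± 0.33) and Cd163 (2.43 ± 0.72) rose. Aif1 (-0.88 ± 0.19), the macrophage growth factor receptor Csf1r (-0.67 ± 0.17) and Cx3cr1 (-1.23 ± 0.31) fell with both control sets, while Cd68 did not pass (0.08 ± 0.20). Of 12 neutrophil markers 5 rose and 1 fell with all controls, 4 and 1 against Sham 1 and Sham 6, with a median of 0.93: the decoy receptor Il1r2 rose by 1.94 ± 0.42 and Cxcr2 by 1.23 ± 0.41 with both sets, Ncf1 fell by 1.02 ± 0.25, and S100a8 did not pass with all controls (0.82 ± 0.52). Interferon-stimulated genes fell more often than they rose, with 10 of 25 falling and 2 rising, 5 and 1 with both sets. Ifi27 (-1.40 ± 0.24), Usp18 (-1.87 ± 0.38) and Mx2 (-1.78 ± 0.40) fell with both, and the RNA sensor Ifih1 rose by 0.66 ± 0.18. Of 14 genes of inflammasomes and regulated necrosis 6 rose and 4 fell, 5 and 1 with both sets, the rises with both being Cflar, an inhibitor of Casp8 (0.81 ± 0.12), Tnfrsf1a, a TNF receptor (1.11 ± 0.13), the kinases Ripk1 (0.81 ± 0.09) and Ripk3 (0.92 ± 0.28), and Casp8 (0.54 ± 0.17). Among NF-kB genes, Rela alone rose with both sets (0.53 ± 0.13), and Nfkbia, its main inhibitor, did not pass (0.09 ± 0.13).

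Most transcription factors of the AP-1 family rose. Of 13 members, 9 rose, all 9 with both control sets and without overlap, with a median log2 difference of 1.45. Fosl1 (FRA-1) held 192, 269.8, 317, 356 and 169.7 in HS against 3.04, 9.43 and 42.1 in Sham (4.57 ± 0.50, limma adjusted p = 1.2e-06). Fosb held 461, 505, 231, 570.0 and 411 against 7.06, 18.1 and 54.2 (4.44 ± 0.61, limma adjusted p = 1.1e-05). Atf3, a stress-induced repressor, held 877, 1981, 2282, 2679.5 and 799 against 115, 186 and 363 (2.99 ± 0.33, limma adjusted p = 1.2e-06). Jun rose by 1.45 ± 0.18, Fosl2 by 1.77 ± 0.24 and the small MAF factor Maff by 1.67 ± 0.23. Fos and Junb did not pass (0.39 ± 0.42 and 0.10 ± 0.29).

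Other immediate early genes were divided. Myc rose by 2.23 ± 0.22 and the antiproliferative Btg2 by 1.38 ± 0.30 with both sets, while Egr1 (0.06 ± 0.39), Nr4a1 (-0.55 ± 0.27) and Ier2 (0.11 ± 0.23) did not pass; 7 of 15 rose. Among Kruppel-like factors 9 of 13 rose and none fell, 8 with both sets. Klf6, a zinc finger factor of early tubular injury, held 6113, 7507, 9821, 10312 and 5989.6 in HS against 1168, 1506 and 1883 in Sham (2.38 ± 0.24, limma adjusted p = 4.7e-07). Klf5 rose by 1.33 ± 0.28 and Klf9, a known glucocorticoid target, by 1.05 ± 0.19. Feedback genes of MAP kinase signalling also rose, 8 of 14, with Dusp8 at 2.00 ± 0.17, Errfi1, the inhibitor of EGF receptor, at 1.21 ± 0.17, and Dusp1 at 0.9995 ± 0.28. Dusp14 fell with all controls only (-1.07 ± 0.28), and the ERK phosphatase Dusp6 did not pass (0.35 ± 0.21).

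**Figure D3:**
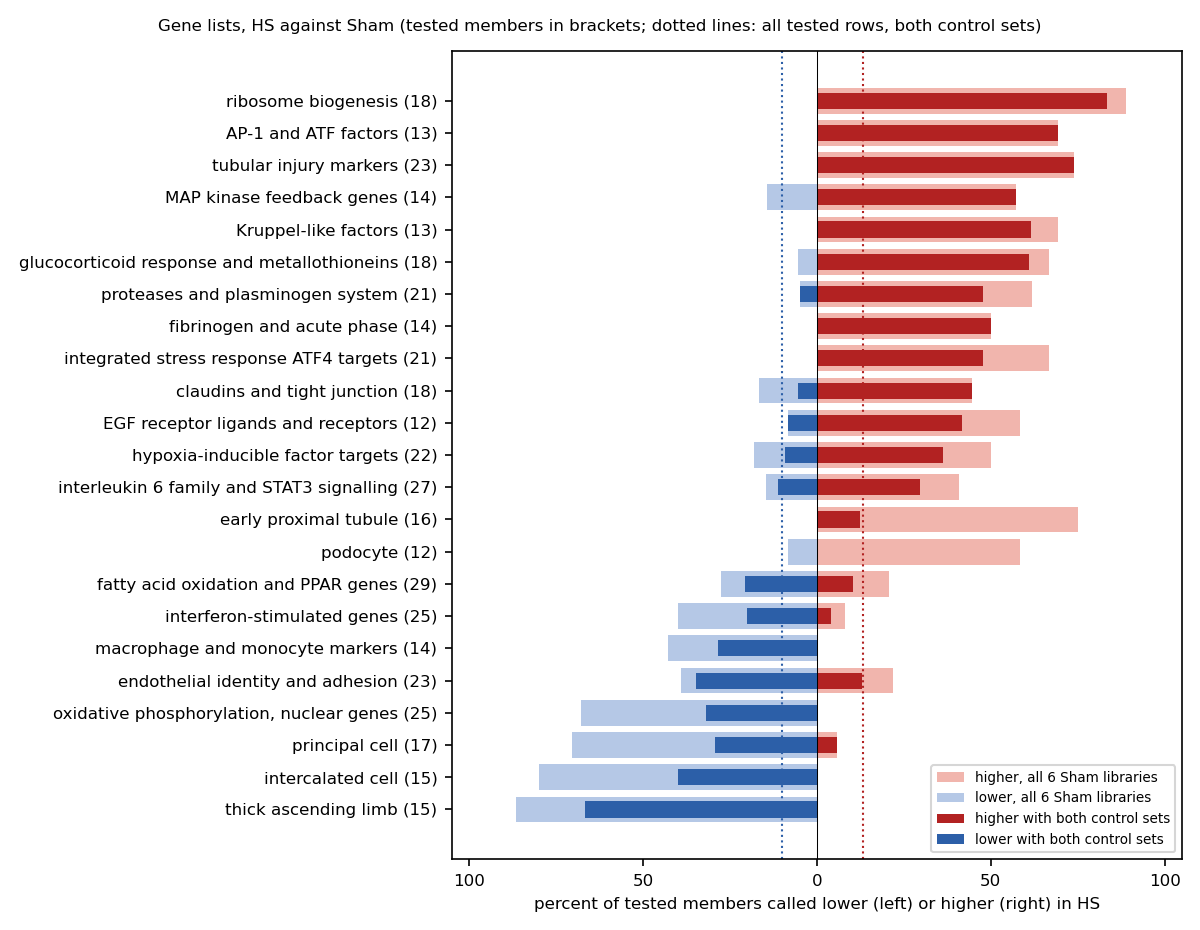
For 23 gene lists, bars give the percent of tested members called higher (right) or lower (left) in HS; pale bars use all 6 Sham libraries and dark bars both control sets in the same direction. Ribosome biogenesis, AP-1 and injury lists reach far to the right and thick ascending limb, intercalated and principal cell lists to the left, while the early proximal tubule and podocyte lists lose most or all of their calls with Sham 1 and Sham 6.

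Ribosome biogenesis had the highest share of rises among the 63 lists counted, both with all controls and with both sets. These genes encode nucleolar proteins that transcribe, modify and assemble ribosomal RNA. Of 18 members, 16 rose, 15 of them with both control sets and none in the other direction, with a median of 0.82 (0.92 with Sham 1 and Sham 6) against -0.03 over all rows. Heatr1, needed for RNA polymerase I transcription, held 2481, 3635, 3369.7, 3418 and 2714 in HS against 997, 1059.7 and 1281 in Sham (1.48 ± 0.15, limma adjusted p = 5.4e-07). Utp20 of the small subunit processome held 287, 332, 309, 317 and 328 against 71.5, 80.7 and 153 (1.81 ± 0.18, limma adjusted p = 5.3e-07). The HS libraries lay close together for both genes and above all Sham libraries. The helicase Ddx21 rose by 1.22 ± 0.11, the box C/D proteins Nop56 and Nop58 by 1.12 ± 0.15 and 1.04 ± 0.15, the polymerase I subunit Polr1b by 1.10 ± 0.16 and nucleophosmin (Npm1) by 0.79 ± 0.13. Of the ribosomal protein genes, 4 of 25 fell with all controls and limma called 0 with Sham 1 and Sham 6, where 1 had an unadjusted p under 0.05 and edgeR called 0; the median was -0.12 with all controls. Of 19 proteasome genes 1 rose and 4 fell with all controls, and against Sham 1 and Sham 6 limma and edgeR called 0, with 1 at an unadjusted p under 0.05. Autophagy receptors and lysosomal proteases rose in part, 7 of 23 with both sets, among them the cathepsins Ctsl (1.41 ± 0.20) and Ctsb (1.28 ± 0.21) and the ATG8 protein Gabarapl1 (0.67 ± 0.10), while the lysosomal regulator Mitf fell by 0.92 ± 0.19.

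Transcripts of the ATF4 arm of the integrated stress response rose in part. Of 21 members, 14 rose, 10 with both sets, and the other 7 did not pass. Atf4 rose by 0.91 ± 0.15, the phosphatase subunit Ppp1r15a (GADD34) by 1.21 ± 0.23, Sesn2 by 1.55 ± 0.17 and asparagine synthetase (Asns) by 0.84 ± 0.18. Chac1, which breaks down glutathione, and Trib3, a pseudokinase, are known ATF4 and CHOP targets. The 250 bases before their starts (RefSeq, GRCr8) are shown because both rose and hold a match to TGATGNAA, the C/EBP-ATF composite site, on either strand. Capitals mark the match.
Chac1 (chr3:126795881-126796130 on the plus strand): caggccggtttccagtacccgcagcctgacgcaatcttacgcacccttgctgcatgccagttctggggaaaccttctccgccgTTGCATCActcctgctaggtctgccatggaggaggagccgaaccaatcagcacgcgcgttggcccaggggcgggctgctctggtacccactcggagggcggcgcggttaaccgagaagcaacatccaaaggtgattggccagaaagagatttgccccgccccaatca
Trib3 (chr3:161275534-161275783 on the minus strand): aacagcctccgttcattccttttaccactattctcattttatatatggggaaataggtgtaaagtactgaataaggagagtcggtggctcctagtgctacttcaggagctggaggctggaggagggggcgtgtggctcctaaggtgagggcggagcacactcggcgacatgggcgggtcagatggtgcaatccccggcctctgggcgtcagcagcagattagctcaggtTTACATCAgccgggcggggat
These 2 are the only promoters with a match among the 10 members that rose with both sets, all 10 of which had a promoter in the table, and 3.4% of all promoters hold one. Chac1 held 59, 66.9, 198, 119 and 48 in HS against 5.32, 15.1 and 29.6 in Sham and rose by 2.41 ± 0.59 (limma adjusted p = 0.0023), and Trib3 rose by 1.57 ± 0.40. Slc7a11, the cystine importer, rose by 2.00 ± 0.64. Ddit3, which encodes CHOP, did not pass (0.48 ± 0.23, limma adjusted p = 0.096), and Phgdh rose with all controls (1.79 ± 0.43) but not with Sham 1 and Sham 6 (0.06 ± 0.17).

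Endoplasmic reticulum and heat shock chaperones changed in part. Sensors and a few effectors of the unfolded protein response rose with both sets, among them Atf6 by 1.28 ± 0.15, Ern1 (IRE1) by 0.96 ± 0.14, Dnajb9 by 1.56 ± 0.19 and Hspa5 (BiP) by 0.94 ± 0.32, whereas Calr (0.27 ± 0.17), Hsp90b1 (0.50 ± 0.27) and Xbp1 (0.16 ± 0.14) did not pass. Hspa1b, an inducible HSP70 gene, held 3721, 19398, 42556, 30967 and 4632 in HS against 842, 1208 and 2298 in Sham (3.38 ± 0.77, limma adjusted p = 0.0013). HS 1 and HS 5 were several times lower than HS 2, HS 3 and HS 4, though still above every Sham library. Its near-identical copy Hspa1a rose by 3.17 ± 0.81, and reads of the 2 cannot be told apart with certainty. Dnaja1 rose by 1.48 ± 0.26 and Hsp90aa1 by 1.76 ± 0.30, Hspb8 fell by 0.90 ± 0.20, and Hspb1 did not pass (0.64 ± 0.53).

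Some p53 targets rose. Cdkn1a, the p21 inhibitor of cyclin-dependent kinases, rose by 2.16 ± 0.29, Tp53inp1 by 2.57 ± 0.24, Mdm2 by 0.92 ± 0.15 and Ccng1 by 0.99 ± 0.15 with both sets, and 6 of 18 p53 targets rose in all, 5 with both sets. Phlda3 fell with all controls only (-0.97 ± 0.25), and Bax was among the 11 that did not pass (0.04 ± 0.14). Cell cycle genes stayed mostly uncalled, 18 of 22, with Mki67 at 0.15 ± 0.33 and Pcna alone rising with both sets (0.58 ± 0.11). Srxn1, sulfiredoxin, held 2326, 3947, 4462, 3144 and 2946 in HS against 242, 519.6 and 719 in Sham (2.86 ± 0.29, limma adjusted p = 5.8e-07). Txnrd1 rose by 1.56 ± 0.19 and Sqstm1 by 1.10 ± 0.20, but Osgin1 (-1.33 ± 0.23) fell with both sets and Gclc (-0.67 ± 0.14), which starts glutathione synthesis, fell with all controls only. Nqo1 did not pass (-0.14 ± 0.34). Of the 7 NRF2 genes that rose with both sets, 6 had a promoter in the table, and of these Srxn1 alone holds TGANTCA, the AP-1 site that lies within many antioxidant elements and is found in 6.34% of all promoters; its sequence over the 250 bases before its start is shown with the match in capitals.
Srxn1 (chr3:161064562-161064811 on the plus strand): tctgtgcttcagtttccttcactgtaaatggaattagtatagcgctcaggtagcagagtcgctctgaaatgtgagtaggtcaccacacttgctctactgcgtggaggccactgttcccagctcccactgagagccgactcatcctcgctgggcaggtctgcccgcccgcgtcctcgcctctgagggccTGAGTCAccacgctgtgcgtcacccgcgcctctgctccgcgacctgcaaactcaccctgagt

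Hmox1, haem oxygenase 1, rose with all controls (2.87 ± 0.76, limma adjusted p = 0.0041) but not with Sham 1 and Sham 6 (1.28 ± 1.01, limma adjusted p = 0.37). HS 1 to HS 5 held 2468, 36015, 4966, 3155 and 4316, Sham 1 to Sham 5 held 427, 433, 463, 400.1 and 499.7, and Sham 6 held 12908. The zinc and iron importer Slc39a14 rose by 1.90 ± 0.23 and the iron-regulatory protein Ireb2 by 1.10 ± 0.13 with both sets, ferrochelatase (Fech) fell by 0.42 ± 0.10, and the ferritin chains Fth1 and Ftl1 did not pass (0.13 ± 0.21 and -0.05 ± 0.17). Acsl4, which loads membranes with polyunsaturated fatty acids, rose by 1.60 ± 0.13, and Gpx4, which repairs lipid peroxides, fell with all controls only (-0.40 ± 0.12). Sat1, the rate-limiting enzyme of polyamine breakdown, rose by 1.29 ± 0.20.

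Most glucocorticoid-responsive genes rose. Sgk1, a kinase that raises sodium transport, held 21803, 23094, 19285, 21104 and 24981 in HS against 3882, 5286 and 6536 in Sham (2.09 ± 0.13, limma adjusted p = 1.2e-08), with 2.41 ± 0.15 against Sham 1 and Sham 6. Zbtb16 rose by 2.65 ± 0.51, Fkbp5 by 0.70 ± 0.26, Tsc22d3 (GILZ) by 0.71 ± 0.28 and metallothionein Mt2A by 1.34 ± 0.25, and 11 of 18 list members rose with both sets. Clock genes were divided, with 4 of 16 higher, 5 lower and 7 not called with all controls, and 3 and 3 called with both sets. The shares over all rows were 23.3% higher and 23.2% lower, or 13.3% and 9.94% with both sets. Arntl (BMAL1) rose by 1.72 ± 0.48, Clock by 1.63 ± 0.23 and Nfil3 by 1.40 ± 0.37, while Dbp (-2.31 ± 0.56), Tef (-0.91 ± 0.22) and Per3 (-0.75 ± 0.28) fell, all with both sets. Dbp held 2149, 1805, 1292, 1103 and 557 in HS and 2956, 6395 and 14272 in Sham, and the labels do not give the hour at which kidneys were taken.

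Among genes of fuel metabolism some rose and some fell. Pdk4, the kinase that shuts pyruvate dehydrogenase, rose by 2.39 ± 0.24, and Angptl4, an inhibitor of lipoprotein lipase, by 2.16 ± 0.23. Plin2, which coats lipid droplets, held 18776, 19580.1, 18129, 18929 and 26052 in HS against 1509, 2353 and 2922 in Sham (3.15 ± 0.27, limma adjusted p = 1.3e-07). Cpt1b, the muscle form of the enzyme that admits fatty acids to mitochondria, held 427, 350.3, 317, 605 and 498 against 1430.1, 2139.6 and 2430.1 and fell by 2.25 ± 0.30 (limma adjusted p = 1e-05). Both genes separated HS from all 6 Sham libraries and passed with both control sets. Of 29 fatty acid oxidation genes, 6 rose and 8 fell, 3 and 6 with both sets. Over all rows 23.3% rose and 23.2% fell, or 13.3% and 9.94% with both sets. The dehydrogenase Acads (-0.60 ± 0.08), the carnitine carrier Slc25a20 (-0.54 ± 0.10) and the fatty acid receptor Cd36 (-0.62 ± 0.19) fell with both, and the liver form Cpt1a did not pass (-0.28 ± 0.16). Nuclear genes of oxidative phosphorylation fell by small amounts, 17 of 25 with none rising and 8 with both sets, led by the complex I subunits Ndufs3 (-0.56 ± 0.08) and Ndufv1 (-0.47 ± 0.07). In the tricarboxylic acid cycle Idh2 alone was called with both sets (-0.66 ± 0.10). Among regulators of mitochondria Esrra, a nuclear receptor that drives oxidative genes, fell by 0.73 ± 0.11, and Nrf1 rose by 0.64 ± 0.14.

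Genes of glucose production and fructose use were divided. Of 16 members 6 rose and 4 fell, 2 and 3 of them with both sets, against 13.3% higher and 9.94% lower over all rows. G6pc1, the last enzyme of glucose production, held 148763, 143275, 66387, 159511 and 154738 in HS against 7921, 21526 and 32689 in Sham (2.74 ± 0.32, limma adjusted p = 2.6e-06). Slc2a2, the basolateral glucose transporter GLUT2, held 13261, 15520.1, 7729, 13209.6 and 14595 against 740.3, 1193 and 3978 (3.04 ± 0.36, limma adjusted p = 3.1e-06). Both rose with Sham 1 and Sham 6 too, by 2.03 ± 0.34 and 1.84 ± 0.33, and HS 3 was the lowest HS library for each. Pck1, the rate-limiting enzyme of the pathway, did not pass (0.01 ± 0.25), and Fbp1 rose with all controls only (0.50 ± 0.16). Slc2a4, the insulin-responsive transporter GLUT4, held 36.6, 35.1, 16.2, 44.1 and 75.2 in HS against 315, 441 and 800.3 in Sham and fell by 3.62 ± 0.46 (limma adjusted p = 5.7e-06). Pck2, the mitochondrial isoform of Pck1 (-0.67 ± 0.12), ketohexokinase (Khk, -0.74 ± 0.11) and the fructose transporter Slc2a5 (-1.09 ± 0.20) fell with both sets. In glycolysis Ldha rose by 0.67 ± 0.12 and Pfkm fell by 1.08 ± 0.23, and 10 of 18 members did not pass.

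Some hypoxia-inducible factor targets rose. Ndrg1 held 89740.3, 117699, 86282, 112021 and 133027 in HS against 21363, 27008 and 32550.4 in Sham (2.01 ± 0.18, limma adjusted p = 1.5e-07). The collagen prolyl hydroxylase P4ha1 rose by 1.78 ± 0.24, the mitophagy receptor Bnip3 by 1.05 ± 0.15 and Hif1a itself by 0.80 ± 0.12, with both sets. The targets Vegfa (-0.19 ± 0.11) and Slc2a1 (-0.28 ± 0.25) did not pass, nor did Epo (1.83 ± 1.22), and Egln3 fell with all controls only (-1.14 ± 0.29). Over the list 11 of 22 rose and 4 fell. Of 24 amino acid enzymes 10 fell and 7 rose, 5 and 2 with both sets, with Oat at -0.92 ± 0.15, Haao at -0.80 ± 0.11 and Gamt at -0.77 ± 0.11, while Aldh18a1 rose by 1.33 ± 0.22. Over all rows 23.2% fell and 23.3% rose, or 9.94% and 13.3% with both sets, so the rises on this list were near or below those shares. Of 21 sterol genes 13 rose, 6 with both sets, with Insig1 at 1.002 ± 0.12.

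Most thick ascending limb genes fell. On this list 13 of 15 members fell, 10 with both control sets, with a median of -1.25 (-1.44 with Sham 1 and Sham 6). Ppp1r1a, a phosphatase inhibitor of this segment, held 5909, 4119, 3579.8, 5035 and 4203 in HS against 36717, 47897 and 52281 in Sham and fell by 3.36 ± 0.38 (limma adjusted p = 1.8e-06). Slc12a1, the furosemide-sensitive cotransporter NKCC2, held 20708, 14113, 12399, 19524 and 20807 against 33406, 63478 and 93000.1 and fell by 1.80 ± 0.31 (limma adjusted p = 0.0001). Umod, uromodulin, held 97715, 53265, 107413, 79260.5 and 78838 against 132353, 192489 and 235326 and fell by 1.21 ± 0.21 (limma adjusted p = 0.0001). In all 3 every HS library was below every Sham library. The chloride channel subunit Bsnd (barttin) had a log2 difference of -2.49 ± 0.39, the potassium channel Kcnj1 (ROMK) -1.40 ± 0.22, the calcium-sensing receptor Casr -2.44 ± 0.43, and the claudins Cldn10, Cldn14 and Cldn16 -1.53 ± 0.14, -3.45 ± 0.91 and -1.25 ± 0.22. Ptger3 (0.33 ± 0.22) and Tmem72 (-0.42 ± 0.41) did not pass.

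Collecting duct genes fell in both of its cell types. Of 15 intercalated cell genes 12 fell, 6 with both sets. The ammonia channel Rhbg held 1390.0, 1068, 719.8, 1103 and 1401 in HS against 2579, 4144 and 4667 in Sham (-1.77 ± 0.21, limma adjusted p = 3.2e-06), and the proton pump subunit Atp6v1b1 (-1.64 ± 0.22), the anion exchanger Slc4a1 (-1.95 ± 0.26) and Rhcg (-1.45 ± 0.22) fell with both sets. Slc4a1 is also a red cell gene, and the summed level of 8 red cell genes was 90440 to 490000 in HS against 236100 to 1380000 in Sham; its part in this result was not tested. Slc26a4, pendrin, did not pass (-0.14 ± 0.22), nor did Car2, carbonic anhydrase II, which the intercalated cell shares with the proximal tubule (-0.12 ± 0.10). Of 17 principal cell genes 12 fell and Sgk1 alone rose, but only 5 of the falls passed with both sets. The summed level of the list was 72560 to 82900.0 in Sham 1 and Sham 6, 82370 to 130400 in Sham 2 to Sham 5 and 53240 to 73230 in HS. Aqp2, the vasopressin-regulated water channel, held 10699.9, 12757, 6988, 10247 and 10927 in HS against 17636, 34211 and 57670.0 in Sham (-1.78 ± 0.35, limma adjusted p = 0.00036) and did not pass with Sham 1 and Sham 6 (-1.25 ± 0.48, limma adjusted p = 0.066). The basolateral water channel Aqp3 (-1.38 ± 0.25), the mineralocorticoid receptor Nr3c2 (-1.39 ± 0.21) and Hsd11b2, which inactivates glucocorticoids, (-1.39 ± 0.23) did pass with both. Of the sodium channel subunits Scnn1b and Scnn1g fell with all controls only (-0.88 ± 0.18 and -0.53 ± 0.19), and Scnn1a did not pass (-0.13 ± 0.20).

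**Figure D4:**
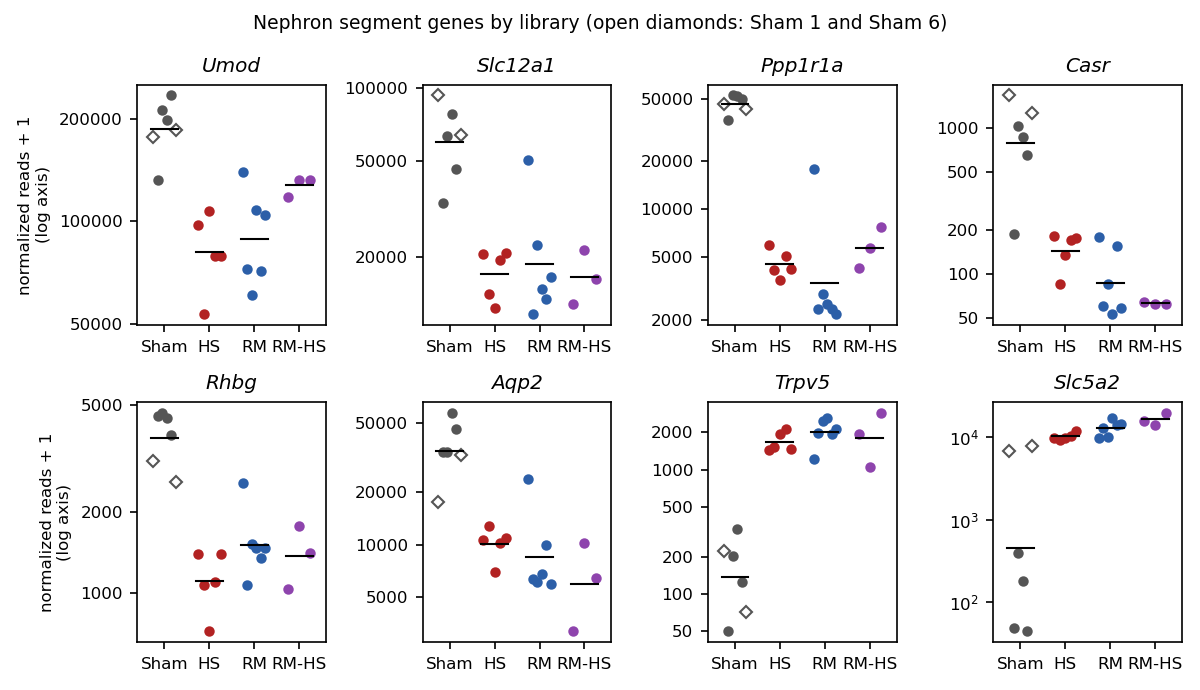
Normalized reads plus 1 on a log axis for 8 genes of nephron segments, with 1 point per library, open diamonds for Sham 1 and Sham 6, and a line at the geometric mean of each group. Umod, Slc12a1, Ppp1r1a and Casr of the thick limb and Rhbg are lower in HS, Trpv5 is higher, Aqp2 in Sham 1 lies nearest to HS, and Slc5a2 in HS lies above but close to Sham 1 and Sham 6.

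Genes of the distal convoluted tubule were divided. Of 15 members 5 rose and 4 fell, 4 and 3 of them with both sets, with a median log2 difference of -0.03. Among all rows 23.3% rose and 23.2% fell, or 13.3% and 9.94% with both sets. Trpv5, the apical calcium channel of the distal convoluted and connecting tubule, held 1445, 1531, 1932, 2097 and 1465 in HS against 49, 164 and 332 in Sham (3.61 ± 0.38, limma adjusted p = 7.2e-07). The basolateral calcium pump Atp2b1 rose by 1.63 ± 0.19 and the magnesium channel Trpm7 by 1.34 ± 0.14, with both sets. The calcium-binding protein Calb1 did not pass (0.12 ± 0.51), and neither did Slc12a3, the thiazide-sensitive cotransporter (-0.08 ± 0.39). The kinase Stk39 (SPAK, -1.34 ± 0.18) and the potassium channel Kcnj10 (-1.92 ± 0.55) fell with both sets. In the inner medulla Slc14a2, which encodes the urea transporter UT-A, held 4.99, 87.3, 83, 99.9 and 68.8 in HS against 984, 1538 and 2111 in Sham. Its groups did not overlap, and it fell with all controls (-4.87 ± 1.60, limma adjusted p = 0.017) but did not pass with Sham 1 and Sham 6 (-4.83 ± 2.44, limma adjusted p = 0.15). RM libraries of this gene ranged from 0 to 1133, a spread that enters the common fit. Of the osmolyte transporters, Slc5a3 for inositol rose by 2.32 ± 0.36 with both sets and Slc6a12 for betaine fell with all controls only (-1.76 ± 0.42).

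Proximal tubule and podocyte genes depended on the controls. Of 16 early proximal tubule genes 12 rose with all controls, but with Sham 1 and Sham 6 only 2 did (14.6% over all rows), and the list's median log2 difference went from 1.42 to 0.06. The 2 were Slc2a2 and the bicarbonate cotransporter Slc4a4 (3.88 ± 0.69 and, with Sham 1 and Sham 6, 1.08 ± 0.29). For Slc5a2 the difference was 4.51 ± 1.01 with all controls, and 0.49 ± 0.19 against Sham 1 and Sham 6 (limma adjusted p = 0.062). Of 12 podocyte genes 7 rose and 1 fell with all controls. Against Sham 1 and Sham 6 limma and edgeR called 0, and 2 members had an unadjusted p under 0.05. The difference for Nphs1, nephrin, went from 1.73 ± 0.45 to 0.22 ± 0.14. Of 14 late proximal tubule genes 3 rose and 5 fell with all controls, 3 and 0 with both sets. The shares over all rows were 23.3% and 23.2%, or 13.3% and 9.94% with both sets. In this segment Slc5a1, the cotransporter SGLT1, rose by 0.79 ± 0.17 with both sets, and Slc7a13, its cystine transporter, fell with all controls only (-0.64 ± 0.16).

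Organic ion transporters moved in both directions. Of 19 members 7 rose and 7 fell, 3 and 1 of them with both sets. For all rows the shares were 23.3% and 23.2%, or 13.3% and 9.94% with both sets. Abcc2 (MRP2) held 6645, 16729, 8582, 11679 and 8242 in HS against 615, 1106 and 1530.2 in Sham (3.28 ± 0.33, limma adjusted p = 5.3e-07), and Abcb1a, a P-glycoprotein gene, rose by 1.39 ± 0.16 and Abcc4 (MRP4) by 1.36 ± 0.22, all with both sets. The efflux pump gene Abcb1b rose with all controls only (1.02 ± 0.34), and Abcg2 (0.28 ± 0.11), Slc47a1 (0.32 ± 0.16) and Slc47a2 (-1.14 ± 0.82) did not pass. Of the uptake transporters, the basolateral cation carrier Slc22a2 (OCT2) fell with all controls only (-0.46 ± 0.12), and the anion carrier Slc22a6 (OAT1) did not pass (0.47 ± 0.28). Slco2b1 fell with both sets (-1.02 ± 0.29). Cytochromes P450 gave 2 of the largest changes of the table in opposite directions. Cyp3a9, a steroid- and drug-oxidising enzyme, was at 0 in 4 of 6 Sham libraries, with a highest value of 8.58, and held 96.4, 76, 180.4, 134 and 41.6 in HS (5.61 ± 0.74, limma adjusted p = 8.7e-06). Cyp1a1, the classic target of the aryl hydrocarbon receptor, held 22.4, 323, 43.3, 179 and 101 in HS against 775, 2606 and 6119.8 in Sham and fell by 4.80 ± 0.72 (limma adjusted p = 2.9e-05). Cyp27b1, which activates vitamin D, rose with all controls (3.33 ± 0.62) and not with Sham 1 and Sham 6 (1.21 ± 0.53).

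Endothelial genes fell more often than they rose. Of 23 members 9 fell and 5 rose, 8 and 3 with both sets. Over all rows 23.2% fell and 23.3% rose, or 9.94% and 13.3% with both sets, so the rises were near those shares. Plvap, of fenestrated capillaries, held 1339, 1515, 1048, 1476 and 1385 in HS against 3167, 4228 and 5028 in Sham and fell by 1.57 ± 0.21 (limma adjusted p = 1.1e-05). Tek, the angiopoietin receptor TIE2, held 574, 621, 399, 558 and 508 against 960.3, 1446 and 2248 and fell by 1.44 ± 0.24 (limma adjusted p = 6.8e-05). Emcn and Ehd3 fell as well (-1.001 ± 0.19 and -1.18 ± 0.27). Not every endothelial gene was lower: VE-cadherin (Cdh5) rose by 1.05 ± 0.20, tissue plasminogen activator (Plat) by 1.08 ± 0.14 and Esm1 by 1.17 ± 0.26, and Vwf did not pass (-0.04 ± 0.22). E-selectin (Sele) fell by 2.45 ± 0.49, and Icam1 did not pass (0.05 ± 0.18).

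Vasoactive systems changed unevenly. Edn1, endothelin 1, held 526, 392, 438, 852 and 652 in HS against 101, 228 and 326 in Sham (1.41 ± 0.32, limma adjusted p = 0.0014), whereas Edn3 held 8.31, 9.07, 1.8, 2.94 and 11.2 against 42, 62.6 and 112 and fell by 3.36 ± 0.66 (limma adjusted p = 0.00038). Neither gene overlapped between the groups. Angiotensin-converting enzyme (Ace) did not pass (-0.04 ± 0.25). Of 18 prostaglandin genes 5 fell and 3 rose, and 3 of the falls passed with both sets. Over all rows 23.2% fell and 23.3% rose, and 9.94% fell with both sets. Ptger1, a prostaglandin E2 receptor, held 15, 22.7, 7.22, 10.8 and 17.6 in HS against 87.4, 132 and 185 in Sham (-3.19 ± 0.44, limma adjusted p = 1.2e-05), and the constitutive cyclooxygenase Ptgs1 (-1.97 ± 0.34) and the phospholipase Pla2g4a (-1.32 ± 0.17) fell with both sets. Ptgs2, the inducible form, did not pass (-0.58 ± 0.37).

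Genes of the EGF receptor system rose in part. Of 12 members 7 rose and 1 fell, 5 and 1 of them with both sets. Egfr held 381, 444, 588, 543 and 314 in HS against 82.9, 103 and 139 in Sham (2.08 ± 0.27, limma adjusted p = 8.4e-06), and its ligands Hbegf and Tgfa rose by 1.88 ± 0.27 and 0.76 ± 0.25, as did Nrg1 (1.92 ± 0.19) and Erbb3 (0.997 ± 0.16), all with both sets. Egf, a product of the thick ascending and distal tubule, fell by 1.03 ± 0.26. Areg (1.24 ± 0.35) and Ereg (2.27 ± 0.75) rose with all controls only, and Erbb2 (0.19 ± 0.14), Erbb4 (0.44 ± 0.29) and Btc (-0.35 ± 0.30) did not pass. On the BMP and TGF-beta list 9 of 25 rose and 8 fell, 7 and 2 with both sets. The shares over all rows were 23.3% and 23.2%, or 13.3% and 9.94% with both sets. The target genes Id3 (-1.31 ± 0.14) and Id1 (-1.23 ± 0.21) fell and the receptors Bmpr2 (1.31 ± 0.18) and Bmpr1a (0.61 ± 0.11) rose, with both sets. Of 21 proteases and plasminogen system genes 13 rose and 1 fell, 10 and 1 with both sets, the rises led by Adamts1, which held 3356, 4141, 8164, 6672 and 4129 in HS against 667, 755 and 859 in Sham (2.73 ± 0.26, limma adjusted p = 3.6e-07); tissue factor (F3) rose by 1.92 ± 0.32. The collagens Col1a2 and Col3a1 fell with all controls only (-0.99 ± 0.26 and -0.73 ± 0.26). Of 18 tight junction genes 8 rose and 1 fell with both sets, with rises of Tjp1 (0.999 ± 0.12), Cldn1 (1.25 ± 0.25) and Cldn4 (1.15 ± 0.37), while Cldn11 fell by 2.01 ± 0.43.

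Lypd8, Csrp3, Reg3b and Mab21l3 were also among the 15 largest rises. Lypd8, of the Ly6 and uPAR family, was at 0 in 4 of 6 Sham libraries and held 26.6, 257, 838, 152 and 40.03 in HS (6.43 ± 0.77, limma adjusted p = 3e-06). Csrp3, the muscle LIM protein, held 257, 519, 1482, 1149.8 and 564 against 1.52, 19.9 and 128 (5.35 ± 0.82, limma adjusted p = 3.6e-05), and Reg3b, a secreted lectin of injured epithelia, held 67.3, 109, 506, 270.3 and 81.7 against 0, 2.86 and 42.1 (5.23 ± 0.94, limma adjusted p = 0.00016). For these 3 genes HS 3 was the highest and HS 1 the lowest of the HS libraries. Mab21l3 held 3949, 6072, 6267, 6323 and 4518 in HS, with 527 and 884 in Sham 1 and Sham 6 and 138, 149.7, 139 and 186 in Sham 2 to Sham 5.

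Among the falls were transcripts known from muscle or nerve. Smim5, a small membrane protein, held 2.49, 6.8, 0, 16.6 and 1.6 in HS against 95.7, 115 and 157 in Sham (-4.84 ± 0.67, limma adjusted p = 1.3e-05). Synpo2l, an actin-binding protein of muscle, held 4.99, 17, 8.12, 16.6 and 14.4 against 172, 234 and 380.3 (-4.33 ± 0.55, limma adjusted p = 5.3e-06), and Tnni3k, a cardiac kinase, held 9.97, 4.54, 16.2, 45.1 and 3.2 against 143, 224 and 292 (-4.27 ± 0.99, limma adjusted p = 0.0016). Of the defining muscle markers Ckm and Myh4 were below the filter on low values, and Acta1 rose (2.83 ± 0.71), from 1.52, 11.2 and 62.5 in Sham to 159, 111, 28.9, 97.9 and 65.6 in HS. Of the 13 muscle genes listed 6 were tested, and besides Acta1, Synpo2l and Tnni3k, Myh1 fell with all controls only (-2.83 ± 0.81) and Tnnt3 (-0.60 ± 0.69) and Myl1 (0.61 ± 1.12) did not pass. The other falls were Lrtm2 (-4.45), Camkv (-3.93), the germ cell helicase Ddx4 (-3.78), Cabp7 (-3.66), the serotonin receptor Htr5b (-3.65), Plpp4 (-3.61), Tuba8 (-3.60), Il12rb1 (-3.59) and the histamine receptor Hrh3 (-3.54), as log2 differences. A pass with both sets and no overlap were conditions for the choice of these falls.

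Markers of tissues next to the kidney were looked at as well. The summed level of 7 adrenal genes was 51.0 to 104 in HS and 68.8 to 161 in Sham, that of 8 adipose genes 3830 to 6902 and 2632 to 7740, and that of 7 genes of urothelium 97.7 to 864 and 419 to 2405. The defining genes Adipoq of adipose tissue (-0.16 ± 0.26), Cyp17a1 of adrenal cortex (-0.50 ± 0.57) and Upk1a of urothelium (-0.95 ± 0.72) did not pass. Of 5 adipose genes tested Fabp4, a fatty acid binding protein also found in endothelium, rose with both sets (1.06 ± 0.39), and Cidec (-0.84 ± 0.24) and Cidea (-1.75 ± 0.42) fell with all controls only. Of 5 adrenal and 7 urothelial genes tested, Cyp11a1 (-2.83 ± 0.75) and Psca (-2.14 ± 0.82) fell with all controls only.

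The difference from RM was tested directly, HS minus RM in the 4-group fit, since both groups share the Sham controls. Of the 15954 rows 3791 (23.8%) passed, 2015 higher (12.6%) and 1776 lower (11.1%) in HS, with a median log2 difference of -0.02. Krt20 stood out, with 0 to 5.07 in the 6 RM libraries and 7.50 ± 0.67 as the HS minus RM log2 difference (limma adjusted p = 4e-07). Cyp3a9 was 0 to 6.5 in RM (5.30 ± 0.74, limma adjusted p = 4.4e-05), and Il22ra1, the interleukin-22 receptor, held 234, 252, 200.2, 137 and 195 in HS and 15.5 to 61.4 in RM (2.81 ± 0.30, limma adjusted p = 2.3e-06). All HS libraries were above all RM libraries for these 3 genes. Serpinb5 (maspin, 3.39 ± 0.61), Cldn22 (3.88 ± 0.64) and Jakmip2 (2.77 ± 0.53) completed the 6 largest differences upward among the genes that also passed against Sham. Tight junction genes were often higher in HS than in RM, 9 of 18, and Sgk1 was 0.67 ± 0.13 above RM.

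**Figure D5:**
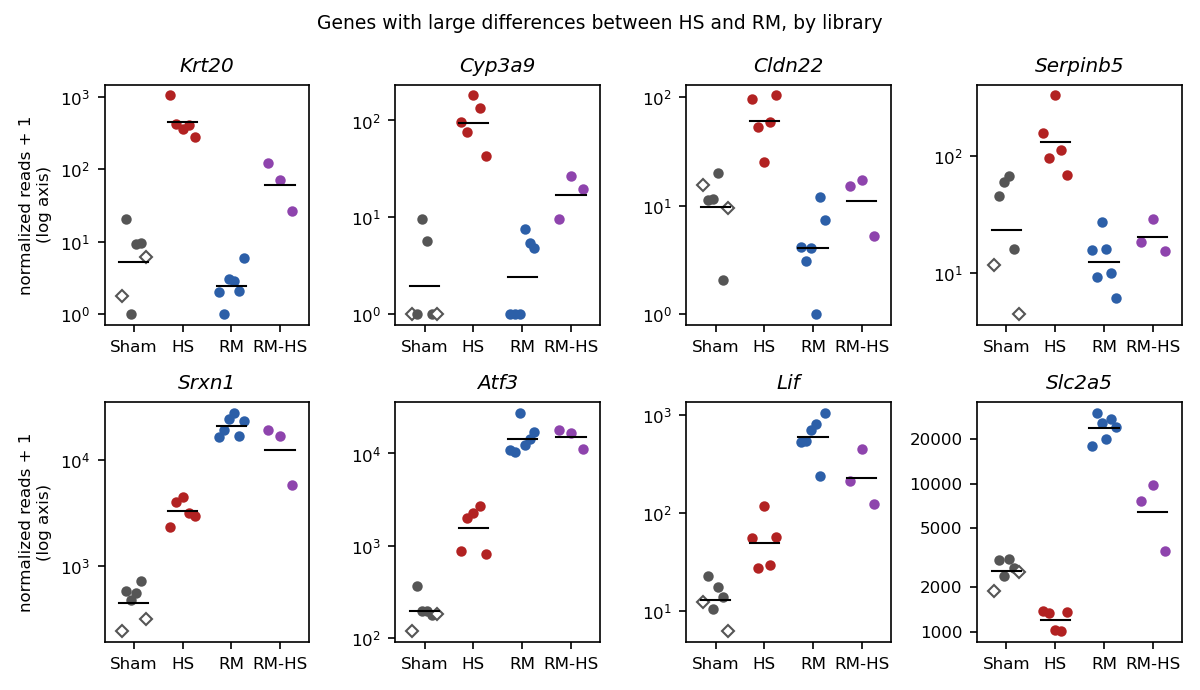
Normalized reads plus 1 on a log axis for 8 of the genes that differ most between HS and RM, with 1 point per library, open diamonds for Sham 1 and Sham 6, and a line at the geometric mean of each group. Krt20, Cyp3a9, Cldn22 and Serpinb5 are higher in HS than in RM, and Srxn1, Atf3, Lif and Slc2a5 are lower, with Slc2a5 in HS below Sham and in RM above it.

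Many stress genes were lower in HS than in RM, as were many genes of other lists. Atf3 held 10314 to 27731 in RM, and HS was lower by a log2 difference of -3.24 ± 0.33 (limma adjusted p = 1.4e-06). Srxn1 held 16421 to 27522 in RM (-2.66 ± 0.29, limma adjusted p = 3.2e-06), and Hmox1 held 109354 to 172376 (-4.76 ± 0.76, limma adjusted p = 0.00015). No HS library reached the lowest RM library for any of these. Of 15 immediate early genes 14 were lower in HS than in RM, of 13 AP-1 factors 9, of 22 NRF2 genes 16. So were 12 of 21 ATF4 targets and 16 of 27 genes on the list of interleukin-6 family and STAT3 signalling. Lists outside stress had high shares too, with 18 of 25 ribosomal protein genes, 7 of 8 red cell genes and 9 of 12 neutrophil markers lower. The same held for 11 of 23 endothelial and 9 of 18 glycolysis genes. Over all rows 11.1% were lower. Lif (-3.56 ± 0.43), the proteasome adaptor Zfand2a (-3.35 ± 0.32), Lexm (-4.12 ± 0.48) and Slc2a5 (-4.32 ± 0.20) were the other 4 of the 6 largest differences downward. Slc2a5 held 1381, 1338, 1019, 999.9 and 1349.7 in HS, 1876, 2615 and 3101 in Sham and 18042 to 30384 in RM, so HS lay below Sham and RM above it.

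Several of the largest changes against Sham did not pass against RM. Havcr1 (1.62 ± 0.61, limma adjusted p = 0.06), Fga (0.88 ± 0.61), Fgb (0.78 ± 0.67) and Fgg (0.42 ± 0.73) were among them, with RM 1, the 1 RM library whose name begins with R, the lowest RM library for each of the 4. In the thick ascending limb Umod (-0.13 ± 0.21), Slc12a1 (-0.13 ± 0.31) and Ppp1r1a (0.40 ± 0.38) did not pass, and 2 of 15 members were lower and 2 higher in HS than in RM. Cish was lower in HS than in RM, where it held 779 to 2204 (-2.06 ± 0.30, limma adjusted p = 6.4e-05).

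The 5 HS libraries were not alike in every response. HS 3 was the highest for Havcr1, Fga, Fgb, Fgg, Serpina3n, Lypd8, Csrp3, Reg3b, Hspa1b and C3, and the lowest for G6pc1, Slc2a2, Fosb and Rhbg. HS 1 was the lowest for Lcn2 (270.0 against 4180.4 in the next), Fga, Fgb, Fgg, Serpina3n, Csrp3 and Reg3b and the highest for Krt20 (1050.2 against 417 in the next). Other responses had narrow ranges within HS, from 287 to 332 for Utp20, 18129 to 26052 for Plin2, 1048 to 1515 for Plvap and 19285 to 24981 for Sgk1.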

How the data were processed

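Gene expression was measured in 20 rat kidney libraries, 5 of them HS and 6 Sham. Per the labels' protocols, stranded mRNA libraries were made and sequenced as paired reads. Per the submitters' processing notes, reads were aligned to rn6 with STAR and counted with featureCounts of Subread 1.5.0, with FastQC 0.11.2, Picard 1.119 and SAMtools 1.0 also in use. The deposited signal is 1 table of read counts that the authors normalized with DESeq2 size factors, with an annotation named FASTDB per the file header. Dividing each library by its smallest value gave whole reads for 100% of values within 0.1 read, so depth could be recovered (45047179 to 109940948 reads a library, 42.2% to 54.7% of them from 14 mitochondrial genes).

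Of 34681 rows, the 15954 that reached 10 in 3 or more of the 20 libraries were tested, on log2(value + 1), with limma 3.58.1 in R 4.3.3 (1 fit over the 4 groups, Benjamini-Hochberg adjusted p under 0.05 over all rows). The contrasts were HS minus Sham, HS minus Sham 1 and Sham 6 (with Sham 2 to Sham 5 left out of that fit), and HS minus RM. On the recovered reads, edgeR 4.0.16 called 7163 rows and DESeq2 1.42.0 called 7625 in HS against Sham, and 6858 rows were called by all 3 tools in the same direction. The fit was tested on simulated data. Other alternatives covered the pseudocount, filter, scaling, array weights, groups fitted, first letter of the library name, and each library left out.

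The genes described are the 15 largest rises and 15 largest falls among rows that passed with both control sets without overlap and averaged 50 or more in the group where they were higher, the 6 largest differences from RM in each direction among such genes, 12 fixed genes, and, from each gene list, up to 4 members with the smallest adjusted p and members that moved against the others, did not pass or define the list. The comparison, the members and the 63 lists were chosen with earlier results of these data known. Promoter sequences and their coordinates are from RefSeq's GRCr8 table, and gene coordinates are in rn6 as deposited. Libraries labelled RM-HS were in the fit and are otherwise not analysed here.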

Additional observations from a re-analysis of the deposited data

Results flagged for a closer look

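Each named gene was checked for a library that stands apart from the others of its group by Dixon's test at the 95% level, in HS and in Sham. Of 662 groups of values over 331 genes, 36 held such a library, and chance flags about 1 in 20 groups. Values are normalized reads, with the range of the other libraries of the group. HS 1 lay below the rest for Slc14a2 (4.99, others 68.8 to 99.9) and above the rest for Id1 (3682, others 2117 to 2337) and Slc7a8 (4385, others 3749 to 3879.7). HS 2 lay below the rest for Slc22a2 (20310.3, others 23031 to 24089) and Slc47a2 (0, others 7.48 to 14.4) and above the rest for Hmox1 (36015, others 2468 to 4966). HS 3 lay below the rest for Acsl4 (5779, others 6619 to 6869.6), Cd36 (1165, others 2377 to 2473), Cfi (89.3, others 149 to 176), G6pc1 (66387, others 143275 to 159511), Klf9 (1580.2, others 2568 to 2912), Slc2a2 (7729, others 13209.6 to 15520.1) and Slc4a1 (1930.2, others 2785 to 3229) and above the rest for Tgfa (854, others 505 to 523). HS 4 lay below the rest for Slc5a1 (1095, others 1353 to 1439.5) and above the rest for Dusp1 (5434, others 4203 to 4447). HS 5 lay below the rest for C1r (2594, others 3543 to 3924) and Cd55 (216, others 381 to 465) and above the rest for Plin2 (26052, others 18129 to 19580.1). Sham 1 lay below the rest for Gpx4 (51460.2, others 76529.5 to 93740.4) and above the rest for Il6st (2717, others 1962 to 2182) and Utp20 (153, others 71.5 to 94.3). Sham 2 lay below the rest for Idh2 (21609, others 27421 to 29607) and above the rest for Ereg (4.3, others 0 to 0), Fga (13812, others 984 to 2402) and Lypd8 (5.16, others 0 to 0.953). Sham 3 lay below the rest for Pck1 (73787, others 118438 to 145525) and Tp53inp1 (267, others 584 to 822) and above the rest for Myl1 (17.2, others 0 to 0). Sham 5 lay below the rest for Cldn22 (1.08, others 8.57 to 18.8) and above the rest for Oat (85678, others 59426 to 65017) and Txnrd1 (8796, others 7055 to 7483). Sham 6 lay below the rest for Col3a1 (1198, others 2467 to 3590.3), Il6 (6.86, others 21.3 to 38.1) and Nop58 (2094, others 2467 to 2608) and above the rest for Hmox1 (12908, others 400.1 to 499.7). HS 3 was the low library for 7 of these genes, more than any other library.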

How the results depend on the processing

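The count of rows that differed between HS and Sham, 7410, stayed between 5281 (libraries named R alone) and 8220 (array weights) under the other tools, scalings, pseudocounts, filters, fits and covariate, and between 6647 and 7509 when each library was left out; it was 7528 with Sham 2 to Sham 5 as controls. When the controls were only Sham 1 and Sham 6 it was 4105, with fewer samples in the test. That count of 4105 was itself 2143 with libraries named R alone and 1428 to 4223 with a library left out (2460 without Sham 1, 1428 without Sham 6, where the lone control is assumed to vary like the other groups); under the other alternatives it was 3012 to 4715. The count against RM, 3791, was 3026 to 4333 under its alternatives.

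Of the 331 genes named, 269 passed against all controls, and 215 of these kept their direction and their call in every alternative. Many were named for passing or for a small adjusted p, so this share does not stand for all rows. Over all rows, 3710 of the 7410 calls held in the same direction with Sham 1 and Sham 6 alone. The 36 called genes that lost their call or direction with Sham 1 and Sham 6 alone were the most for 1 setting; leaving out 1 library lost 2 to 10, libraries named R alone 22 and the letter covariate 13. With Sham 1 and Sham 6 alone the difference for Slc7a8 was -0.61 and that for Fbp1 -0.038, against 1.64 and 0.50 with all controls; the cause was not tested. No paired analysis was possible because the labels give no replicate numbers, and the numbers used here only name libraries in accession order. Fold changes of genes near 0 in Sham, such as Cyp3a9, Lypd8 and Cxcl6, depend on the pseudocount. The hour of sampling, strain and blood loss are not given in the labels used here, and the letter of the library name is unbalanced between HS (3 R and 2 S), Sham (6 R) and RM (1 R and 5 S).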
